A study of Mus musculus with 12 samples.

Results

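The C/EBP family of transcription factors was followed in whole mouse skin, as the genes *Cebpa*, *Cebpb*, *Cebpd*, *Cebpe*, *Cebpg* and *Ddit3*. These 6 genes were taken by name, and every probe set annotated to one of them alone was read on 12 Affymetrix mouse arrays. Of the 6, 5 were measured, by 10 of the 45101 probe sets on the array, among 18193 genes in all, and *Cebpe*, which had no probe set of its own, was not measured here. The 12 arrays fell into 4 groups of 3 mice, which the labels call biological replicates: untreated *Ahr*+/- (AhR HET), untreated *Ahr*-/- (AhR KO), and both genotypes on day 2 of imiquimod (IMQ) applied to the skin. Imiquimod is a Toll-like receptor agonist whose cream gives mice a psoriasis-like dermatitis. AhR, the aryl hydrocarbon receptor, is a transcription factor that senses dietary and environmental ligands. The *Ahr*-/- mice lacked the receptor in every cell type, and their *Ahr*+/- controls, littermates in the study, carried 1 intact copy. The untreated skin was taken on day 0 and had no cream, so the effect of IMQ and that of its cream base cannot be told apart. The sources used here give neither age nor sex.

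C/EBP proteins bind DNA as pairs through a basic region and a leucine zipper, and the family divides by what its members do with it. C/EBPα slows division and drives the differentiation of fat cells and granulocytes, C/EBPβ and C/EBPδ carry the response to inflammatory cytokines such as IL-6 and IL-1, and C/EBPε completes the granules of neutrophils. C/EBPγ and CHOP, the product of *Ddit3*, pair with the other members and with the stress factor ATF4. In the epidermis C/EBPα and C/EBPβ are known for their part in taking keratinocytes out of the cell cycle as they differentiate.

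The promoters of *Cebpb* and *Ddit3* are shown because these genes had the largest estimated differences between the genotypes' responses to IMQ among the members on the main probe sets, as given below. The sequences are from RefSeq, build GRCm38.p6, and each runs over the 250 bases before the gene's start, 5′ to 3′ on the gene's strand, which is the plus strand for both. *Cebpb* starts after chr2:167688665-167688914 and *Ddit3* after chr10:127290543-127290792. Capitals mark TGACG (the core of a cAMP response element, read by CREB and ATF proteins), GCGTG (the core of the AhR site), TGANTCA (an AP-1 site) and CCAAT (the box that named the family), each on either strand.
Cebpb: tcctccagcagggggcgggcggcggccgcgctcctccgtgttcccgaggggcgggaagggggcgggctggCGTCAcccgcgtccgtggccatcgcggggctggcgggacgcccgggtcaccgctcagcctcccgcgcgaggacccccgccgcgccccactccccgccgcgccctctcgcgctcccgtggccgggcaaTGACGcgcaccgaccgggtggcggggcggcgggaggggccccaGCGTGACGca
Ddit3: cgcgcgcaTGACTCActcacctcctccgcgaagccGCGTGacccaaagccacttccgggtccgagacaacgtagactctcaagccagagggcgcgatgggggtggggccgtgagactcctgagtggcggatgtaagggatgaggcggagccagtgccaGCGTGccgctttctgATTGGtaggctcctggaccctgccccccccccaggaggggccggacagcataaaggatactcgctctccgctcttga

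The *Cebpb* promoter held 3 matches to TGACG, at -180, -53 and -7 from the start, and 1 to GCGTG at -10, whose last 2 letters are the first 2 of the match at -7. That of *Ddit3* held 1 AP-1 match at -242, 2 matches to GCGTG at -215 and -92, and 1 CCAAT box at -77. Of 32851 RefSeq mouse promoters searched over the same length, 17.8% held TGACG, 28.2% GCGTG, 6.75% TGANTCA and 33.8% CCAAT. The *Cebpg* promoter held 2 matches to GCGTG and 2 CCAAT boxes, and that of *Cebpa* held none of the 4. None of these promoters held the C/EBP palindrome TTGCGCAA, found in 0.164% of all promoters, the looser C/EBP site TTNNGNAA (36.8%), the C/EBP-ATF element TGATGNAA (3.45%), the STAT site TTCNNNGAA (7.02%) or the NF-κB site (0.356%). The promoters of *Cebpd* and *Cebpe* are not shown. A match says only that the letters occur there, and guanine and cytosine made up 81.6% of the *Cebpb* stretch and 64.8% of that of *Ddit3*. *Cebpa* and *Cebpg* lie near each other on chromosome 7.

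All values below are log2 signals as deposited, on which 1 unit is a doubling, and a signal is compared between arrays but never between genes. A gene was called changed at a Benjamini-Hochberg adjusted p under 0.05 over all 18193 genes and a fold change of at least 1.5, in limma's moderated fit of the 4 group means. In *Ahr*+/- skin 1 of the 5 measured members was called after IMQ, against 9.05% of all genes, and in *Ahr*-/- skin 3 of 5, against 22.7%. Between the genotypes 1 of 5 was called on day 2, against 3.98%, and 0 of 5 in untreated skin, against 0.0055%. For the genotypes' responses to IMQ, compared directly as an interaction, 0 of 5 were called, against 1.32%. An unadjusted p under 0.05 was reached by 3, 3, 2, 1 and 2 members in these 5 comparisons, in the order given. Of all 18193 genes it was reached by 4522, 7032, 3828, 1180 and 3185. The rank product that the study used on its arrays called 0 members in each of the 4 comparisons it was run on. Its count over all genes is not given here. Every array of *Cebpb* was higher after IMQ in both genotypes, *Cebpd* likewise, and the main probe set of *Ddit3* moved in opposite directions in the genotypes. The share of all genes whose groups of 3 arrays do not overlap is not given here. A lack of overlap is therefore only a description of the arrays. The IMQ response of *Ahr*-/- skin, the day 2 comparison and the interaction share the treated *Ahr*-/- arrays and are not independent. The plot of signals by array shows these patterns.

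**Figure D1:**
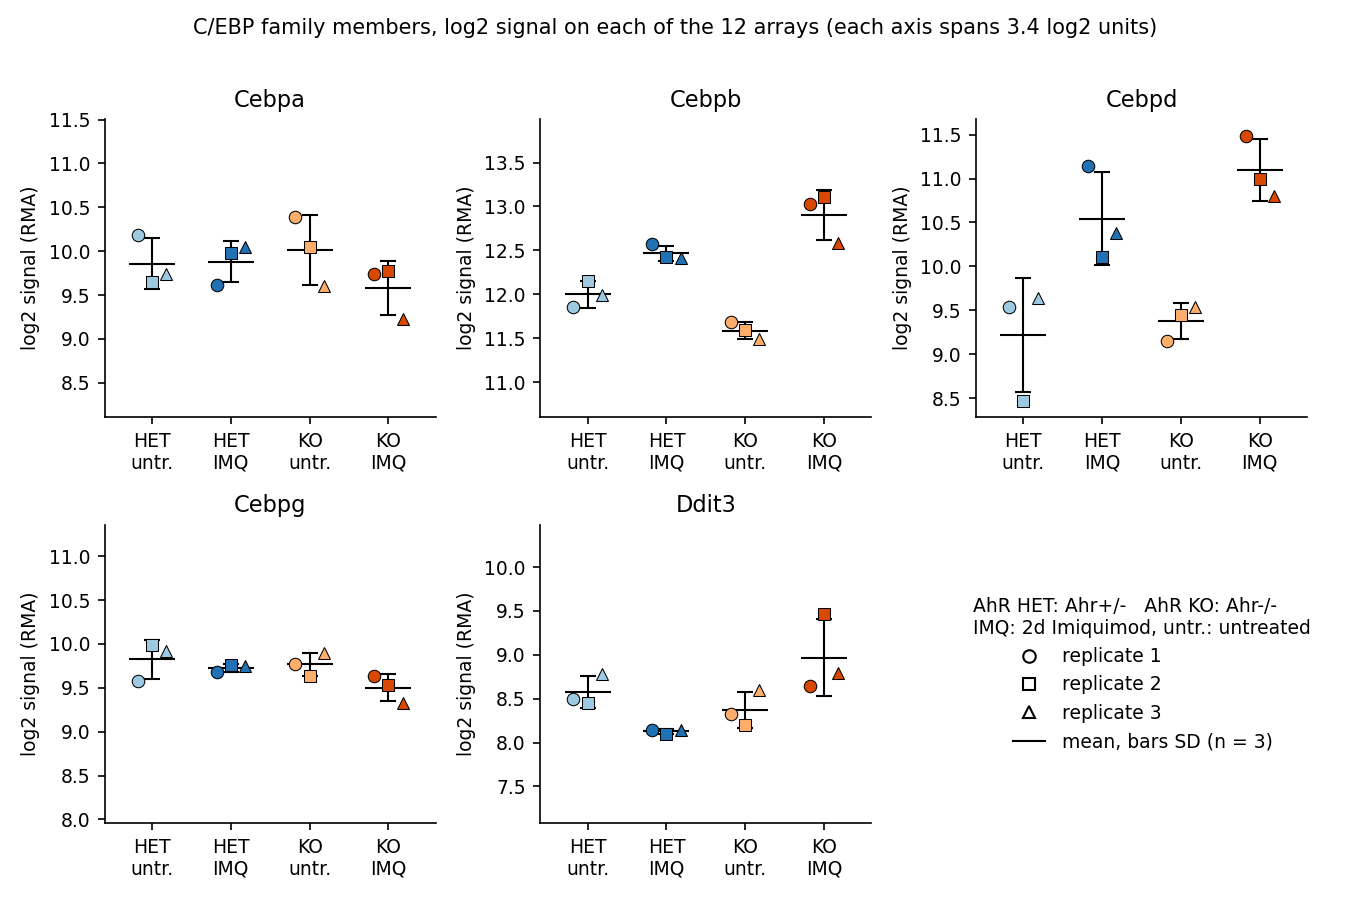
Log2 signal (vertical axis, of the same span in every panel) of the main probe set of *Cebpa*, *Cebpb*, *Cebpd*, *Cebpg* and *Ddit3* on the 12 arrays, by group (horizontal axis); symbols mark replicates 1 to 3, horizontal bars the mean and error bars the SD over 3 arrays. The IMQ arrays of *Cebpb* and *Cebpd* lie above the untreated arrays of their genotype, and for *Ddit3* the 3 IMQ arrays of *Ahr*+/- skin (8.10 to 8.15) lie below and those of *Ahr*-/- skin (8.65 to 9.47) above their untreated arrays.

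The arrays differed in ways that bear on these values. The difference between the 3′ and 5′ control probe sets of *Gapdh*, a sign of RNA integrity and labelling, was 1.17, 1.52 and 0.28 on *Ahr*-/- IMQ replicates 1, 2 and 3 and 0.14 to 0.53 on the other 9 arrays. For *Actb* it was 1.33, 1.58 and 0.58 on those 3 arrays and 0.61 to 1.08 on the others. Untreated *Ahr*+/- replicate 2 had a mean signal over 10 markers of growing hair follicles of 11.8, the highest of the group, whose lowest array was at 7.96, and the other 3 groups lay between 5.72 and 7.60. The keratinocyte markers averaged 12.4 to 13.8 over all arrays, as in skin. The *Ahr* probe set read 10.1 to 11.3 in untreated *Ahr*+/- and 11.3 to 11.4 in untreated *Ahr*-/- skin, and 9.79 to 10.3 and 9.07 to 9.87 on day 2. It thus did not fully separate the genotypes in untreated skin or on day 2. The sources used here do not say whether its probes lie in the deleted part of the gene, and the genotypes are those of the labels.

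*Cebpb*, the member most tied to IL-6 and IL-1 signalling, was measured by 2 probe sets. On the main set, untreated *Ahr*+/- skin read 11.85, 12.15 and 11.99, and IMQ-treated *Ahr*+/- skin 12.57, 12.43 and 12.41. Untreated *Ahr*-/- skin read 11.68, 11.59 and 11.48, and IMQ-treated *Ahr*-/- skin 13.02, 13.11 and 12.58. The 4 groups followed one another without overlap, with untreated *Ahr*-/- skin lowest and IMQ-treated *Ahr*-/- skin highest. After IMQ, *Cebpb* rose in *Ahr*-/- skin by 1.32 (95% interval 0.98 to 1.66, adjusted p = 9.4e-05), a fold change of 2.50. In *Ahr*+/- skin the difference was 0.47 (0.13 to 0.81, adjusted p = 0.0784), 1.38-fold and short of the call.

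The interaction of *Cebpb* was 0.85 (standard error 0.22, interval 0.37 to 1.33, adjusted p = 0.0803), which did not pass. It was made up of a day 2 difference of 0.44 (adjusted p = 0.135) and an untreated difference of -0.41 (adjusted p = 0.725). On the main set neither pair of groups overlapped, while on the second set the day 2 groups did. Thus the mean signal of *Ahr*-/- skin lay below that of *Ahr*+/- skin before treatment and above it on day 2, and neither genotype difference passed the test. Without untreated *Ahr*+/- replicate 1 the interaction was 0.92 (adjusted p = 0.0418), and without *Ahr*-/- IMQ replicate 3, the array with the low *Gapdh* difference, it was 1.01 (adjusted p = 0.025) and the day 2 difference 0.60 (adjusted p = 0.0295). With *Ahr*-/- IMQ replicate 3 as the only treated *Ahr*-/- array, assumed to vary like the other groups, the response in *Ahr*-/- skin was 1.00 (adjusted p = 0.0125), the day 2 difference 0.11 (adjusted p = 0.927) and the interaction 0.53 (adjusted p = 0.49). With the *Gapdh* difference as a covariate these values were 1.06 (adjusted p = 0.00321), 0.12 (adjusted p = 1) and 0.51 (adjusted p = 0.608).

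The second probe set of *Cebpb* followed the first over the 12 arrays (Pearson r = 0.974, arrays sharing their groups). It read 9.38, 9.32 and 9.27 in untreated and 10.40, 10.36 and 10.19 in IMQ-treated *Ahr*+/- skin, and 8.94, 8.75 and 8.89 and then 10.86, 11.02 and 10.26 in *Ahr*-/- skin. In a fit over all probe sets it was called in both genotypes, at 1.00 in *Ahr*+/- (adjusted p = 0.0045) and 1.85 in *Ahr*-/- skin. Its interaction was 0.85 (adjusted p = 0.119). The response of *Cebpb* in *Ahr*+/- skin thus passed on the dimmer set and not on the brighter, and its mean over both sets was also called, at 0.73 (adjusted p = 0.0111).

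*Cebpd*, an acute-phase gene that STAT3 induces in many cell types, had the largest difference of the members in each genotype's response on the main probe sets. With the mean of all probe sets *Cebpb* differed more in *Ahr*-/- skin, by 1.59 against 1.30 for *Cebpd*. Its main set read 9.54, 8.47 and 9.64 in untreated and 11.14, 10.11 and 10.38 in IMQ-treated *Ahr*+/- skin. In *Ahr*-/- skin it read 9.14, 9.45 and 9.54 without treatment and 11.49, 10.99 and 10.80 with IMQ. On this set the treated and untreated arrays did not overlap in either genotype, while the genotypes overlapped before and after treatment. Between the genotypes the difference was 0.16 in untreated skin (adjusted p = 0.959) and 0.55 on day 2 (adjusted p = 0.354). After IMQ, *Cebpd* rose 2.51-fold in *Ahr*+/- skin, a log2 difference of 1.33 (interval 0.63 to 2.03, adjusted p = 0.0219). The rise in *Ahr*-/- skin was 3.29-fold, a log2 difference of 1.72 (interval 1.01 to 2.42, adjusted p = 0.00209). The interaction was 0.39 with an interval of -0.60 to 1.38 (adjusted p = 0.703), so that a difference of over 1 unit between the genotypes' responses lies within it.

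The lowest *Cebpd* value, 8.47, was on untreated *Ahr*+/- replicate 2, the array with the highest hair follicle markers. Without it the response in *Ahr*+/- skin was 0.96 (adjusted p = 0.036), still called. Without *Ahr*+/- IMQ replicate 1 the response was 1.03 (adjusted p = 0.0983), and the adjusted p was 0.0931 when only the *Ahr*+/- groups were fitted, so the call in *Ahr*+/- skin depended on that array and on the shared estimate of the spread. With *Ahr*-/- IMQ replicate 3 as the only treated *Ahr*-/- array, the response in *Ahr*-/- skin was 1.43 (adjusted p = 0.103). The second set of *Cebpd* was dim, at 5.30 to 6.63 over all arrays, and correlated with the main set at r = 0.727. It was called in *Ahr*-/- skin, at 0.89 (adjusted p = 0.0119), and differed by 0.31 in *Ahr*+/- skin (adjusted p = 0.435). On day 2 the genotypes did not overlap on this set, and their difference of 0.54 was not called (adjusted p = 0.193).

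*Cebpa*, which promotes growth arrest and differentiation, passed the test in none of the 5 comparisons. Its only probe set read 10.19, 9.65 and 9.74 in untreated and 9.62, 9.98 and 10.04 in IMQ-treated *Ahr*+/- skin, and 10.39, 10.05 and 9.60 and then 9.74, 9.77 and 9.22 in *Ahr*-/- skin. The groups overlapped in all 4 direct comparisons. The response was 0.02 in *Ahr*+/- skin (interval -0.48 to 0.52, adjusted p = 0.971) and -0.44 in *Ahr*-/- skin (interval -0.94 to 0.06, adjusted p = 0.182). The interaction was -0.46 (interval -1.17 to 0.25, adjusted p = 0.50), and the interval in *Ahr*-/- skin holds both 0 and a fall of over 1.5-fold.

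*Cebpg*, a family member without a strong activating domain of its own that pairs with ATF4 and other members, stayed within a narrow range on its main set. It read 9.57, 9.98 and 9.92 in untreated and 9.68, 9.76 and 9.75 in IMQ-treated *Ahr*+/- skin, and 9.77, 9.63 and 9.90 and then 9.64, 9.53 and 9.33 in *Ahr*-/- skin. The response was -0.10 in *Ahr*+/- (interval -0.42 to 0.22, adjusted p = 0.746) and -0.27 in *Ahr*-/- skin (interval -0.58 to 0.05, adjusted p = 0.201), and none of its comparisons passed. On day 2 the genotypes did not overlap, and their difference was -0.23 (adjusted p = 0.401).
Its 3 probe sets disagreed in *Ahr*-/- skin. One of the dimmer sets read 7.24, 6.99 and 6.48 before and 6.17, 6.27 and 5.97 after IMQ and was called lower, at -0.77 (adjusted p = 0.0135), while the other differed by -0.07 (adjusted p = 0.788). In *Ahr*+/- skin the dimmer sets differed by -0.29 each, not called.

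*Ddit3* encodes CHOP, which blocks other C/EBP proteins from their sites and is induced through ATF4 when protein folding or amino acid supply is disturbed. Its main set read 8.50, 8.45 and 8.78 in untreated *Ahr*+/- skin and 8.14, 8.10 and 8.15 after IMQ. In *Ahr*-/- skin it read 8.33, 8.20 and 8.59 without treatment and 8.65, 9.47 and 8.79 after IMQ. All 3 treated arrays lay below the untreated ones in *Ahr*+/- skin and above them in *Ahr*-/- skin, where the nearest arrays were at 8.65 and 8.59. After IMQ, *Ddit3* rose in *Ahr*-/- skin by 0.59 (interval 0.16 to 1.03, adjusted p = 0.0423), 1.51-fold and just past the fold threshold, and in *Ahr*+/- skin the difference was -0.45 (interval -0.88 to -0.01, adjusted p = 0.186).

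On day 2 *Ddit3* was higher in *Ahr*-/- than in *Ahr*+/- skin by 0.84 (interval 0.41 to 1.27, adjusted p = 0.0363), 1.79-fold, the only member called between the genotypes. The interaction was 1.04 (standard error 0.28, interval 0.43 to 1.66, adjusted p = 0.0905) and did not pass. The highest value, 9.47, was on *Ahr*-/- IMQ replicate 2, the array with the highest *Gapdh* difference (1.52). Without that array the response in *Ahr*-/- skin was 0.35 (adjusted p = 0.158) and the day 2 difference 0.59 (adjusted p = 0.121). With the *Gapdh* difference as a covariate these were 0.31 (adjusted p = 0.455) and 0.49 (adjusted p = 0.782), and with *Ahr*-/- IMQ replicate 3 as the only treated *Ahr*-/- array 0.42 (adjusted p = 0.261) and 0.66 (adjusted p = 0.323).

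Both calls of *Ddit3* rest on its main probe set. The second set read 7.47, 7.05 and 7.18 in untreated and 6.20, 6.74 and 6.41 in IMQ-treated *Ahr*+/- skin, and 7.27, 7.37 and 5.53 and then 6.29, 6.22 and 6.88 in *Ahr*-/- skin. It correlated with the main set at r = -0.20 over the 12 arrays. Its values were -0.79 in *Ahr*+/- skin (adjusted p = 0.232), -0.26 in *Ahr*-/- skin (adjusted p = 0.675) and 0.02 between the genotypes on day 2 (adjusted p = 0.987). Both sets were thus lower on all IMQ arrays of *Ahr*+/- skin, and they parted in *Ahr*-/- skin.

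**Figure D2:**
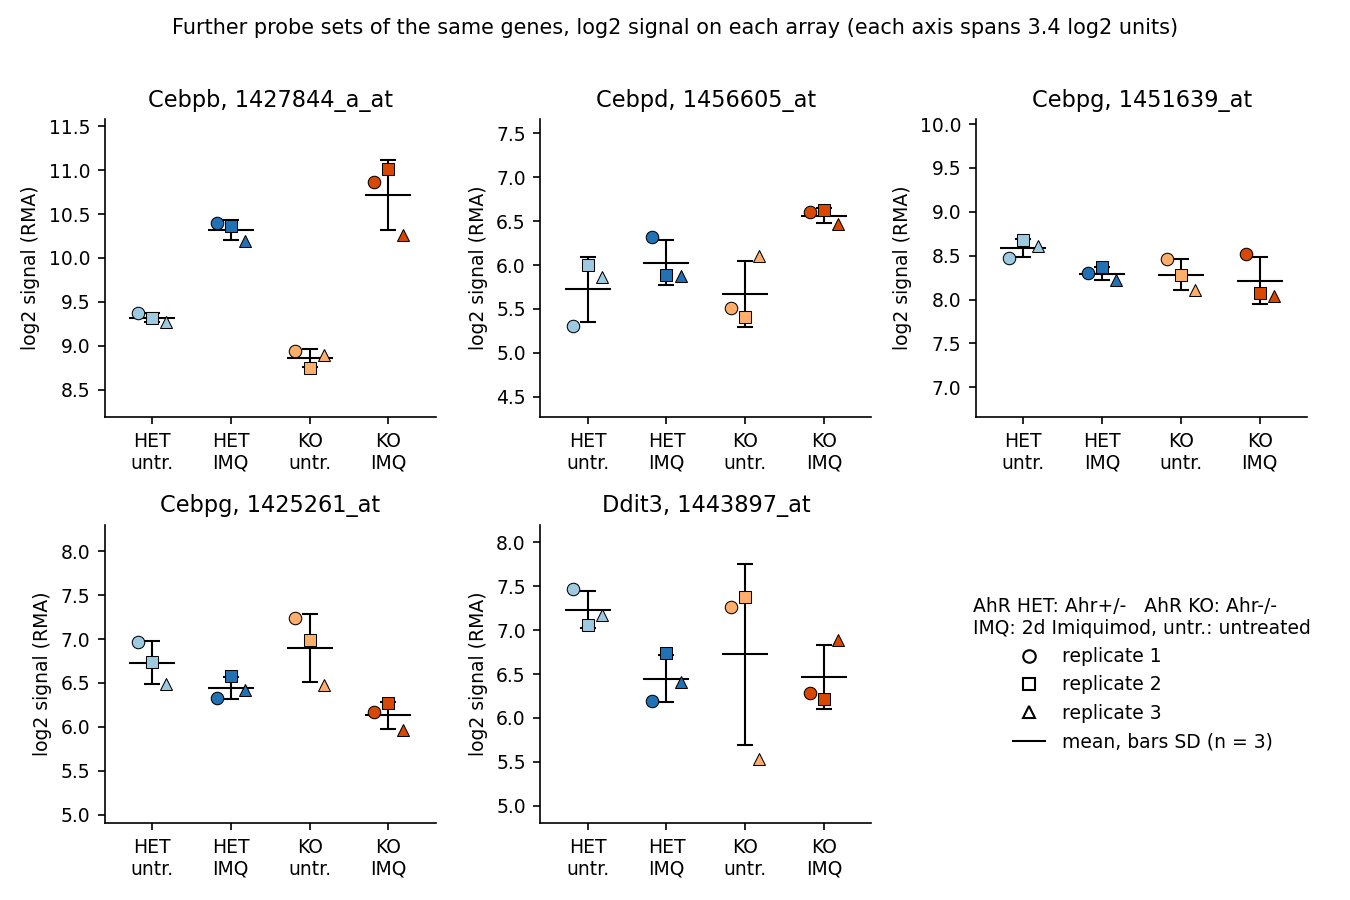
Log2 signal (vertical axis, of the same span in every panel) of the 5 further probe sets of *Cebpb*, *Cebpd*, *Cebpg* and *Ddit3* by group (horizontal axis), with symbols, means and SD over 3 arrays as for the main sets. The set of *Cebpb* repeats the order of its main set except that the day 2 genotypes overlap, one set of *Cebpg* is lower on the *Ahr*-/- IMQ arrays (5.97 to 6.27), and that of *Ddit3* shows no rise in *Ahr*-/- skin.

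**Figure D3:**
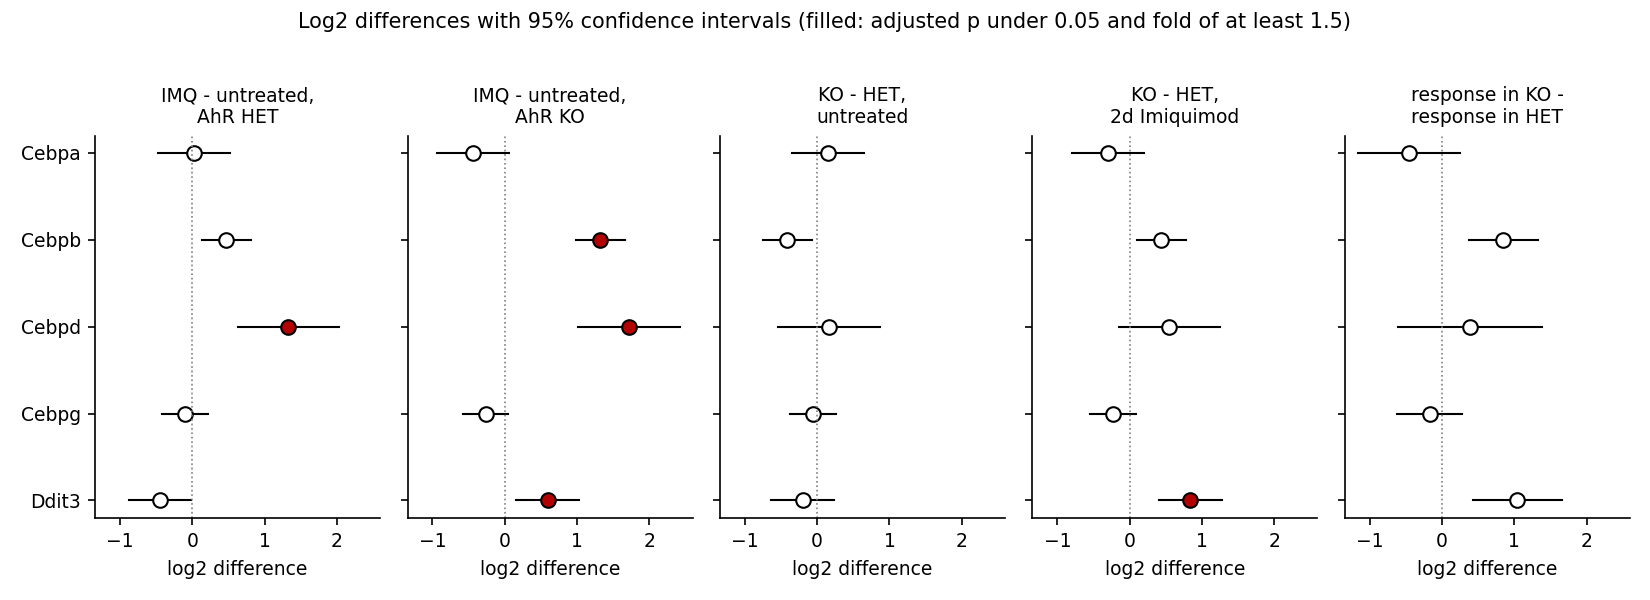
Log2 differences (horizontal axis) of the 5 measured members (vertical axis) in the 5 comparisons, with 95% confidence intervals of limma's moderated fit over 3 arrays a group; filled points were called. *Cebpd* is filled for IMQ in both genotypes, *Cebpb* and *Ddit3* for IMQ in *Ahr*-/- skin, *Ddit3* also for the genotypes on day 2, and no point is filled for untreated skin or for the difference between the responses.

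Across the 12 arrays *Cebpb* and *Cebpd* went together (Pearson r = 0.80), but their deviations from their group means did not (r = 0.00018). For *Cebpd* and *Cebpg* r was -0.62 and within groups -0.17, and for *Cebpb* and *Cebpg* -0.45 and 0.56. These values describe arrays that share their treatment and RNA quality. The genes whose signals were most like a member's over the 12 arrays were *Lrwd1*, *Cactin* and *Farsa* for *Cebpb* (r = 0.979, 0.974 and 0.973). For *Cebpd* they were *Mctp2*, *Tiparp* and *Map1lc3b* (r = 0.976, 0.967 and 0.966). For *Ddit3* they were *Sirt6*, *Dynap* and *Znrf1* (r = 0.961, 0.936 and 0.925), for *Cebpa* *Dgka*, *Sytl1* and *Klc3* (r = 0.929, 0.929 and 0.913), and for *Cebpg* *Guca1b*, *Ubxn7* and *Thap11* (r = 0.911, 0.907 and 0.896). *Farsa* averaged 8.31, 8.82, 7.92 and 8.97 in untreated and IMQ-treated *Ahr*+/- and untreated and IMQ-treated *Ahr*-/- skin, the same order of groups as *Cebpb*. It was chosen by its correlation with *Cebpb* on these arrays, so the shared order is not a separate result. *Tiparp*, a gene that AhR ligands induce, averaged 9.30, 10.08, 9.27 and 10.49 in these groups.

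The genes around the C/EBP proteins were read from 6 lists, and 1 gene may stand on more than 1. In whole skin a change in the share of a cell type and a change in RNA per cell cannot be told apart. Over all 18193 genes the median log2 difference was -0.01 for IMQ in *Ahr*+/- skin, 0.07 for IMQ in *Ahr*-/- skin and 0.06 between the genotypes on day 2. Lists with higher counts in *Ahr*-/- than in *Ahr*+/- skin stand against a background that was itself higher there, 22.7% against 9.05%. For the fit with the *Gapdh* covariate the count over all genes is not given here. A fit with replicate 3 as the only treated *Ahr*-/- array has less power for every gene. Its count over all genes is not given here. Lower list counts in that fit, in any comparison, therefore do not show that a difference is absent on that array.

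Of 15 measured signals and inhibitors that act on the C/EBP proteins, 5 rose and 0 fell in *Ahr*+/- skin after IMQ (median 0.36), and 10 rose and 1 fell in *Ahr*-/- skin (median 1.03). *Il6*, the cytokine that gave NF-IL6, another name of C/EBPβ, rose by 3.80 in *Ahr*+/- and 6.21 in *Ahr*-/- skin. *Il1b*, which encodes IL-1β, rose by 2.24 and 6.41, and *Csf3r*, the receptor for the granulocyte growth factor G-CSF, by 1.17 and 3.69. *Nfkbiz*, the IκBζ gene, rose by 2.28 in *Ahr*+/- skin. In *Ahr*-/- skin it was higher after IMQ too, averaging 9.50 untreated and 11.25 after IMQ. *Socs3*, the feedback inhibitor of STAT3, rose by 2.62 in *Ahr*-/- skin. In *Ahr*+/- skin it was higher after IMQ too, averaging 9.47 untreated and 10.50 after IMQ. On day 2, 7 of the 15 were higher in *Ahr*-/- skin and 0 lower (median 0.67). Among them were *Il1b*, by 4.09, *Il6*, by 2.38, *Csf3r*, by 2.30, and *Il1r1*, the IL-1 receptor, by 1.51. Adding the *Gapdh* covariate left 1 of the list called on day 2 and 8 for IMQ in *Ahr*-/- skin. When replicate 3 was the only treated *Ahr*-/- array, 6 were called for IMQ in *Ahr*-/- skin and 0 on day 2.

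Of 15 measured acute-phase and cytokine genes that C/EBPβ and C/EBPδ are known to drive, 8 rose and 0 fell in *Ahr*+/- skin (median 1.29), and 11 rose and 1 fell in *Ahr*-/- skin (median 3.42). *Saa3*, a serum amyloid A gene, rose by 7.36 in *Ahr*+/- and 8.22 in *Ahr*-/- skin, *Lcn2*, which encodes the iron-carrier-binding lipocalin 2, by 6.26 and 7.62, and *Saa1* by 4.31 and 5.96. *Orm1*, also on the list, went the other way in *Ahr*-/- skin, with means of 11.26 untreated and 10.28 after IMQ. In *Ahr*+/- skin its means were 10.82 and 10.77. On day 2, 5 were higher in *Ahr*-/- skin and 0 lower (median 1.24). These included *Ptx3*, a soluble pattern receptor, by 4.06, *Csf3*, which encodes G-CSF, by 2.75 and *Ptgs2*, which encodes cyclooxygenase 2, by 1.62. The *Gapdh* covariate left 0 of the list called on day 2 and 12 for IMQ in *Ahr*-/- skin. On replicate 3 alone as the treated *Ahr*-/- array, 10 were called for IMQ in *Ahr*-/- skin and 0 on day 2.

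*Cebpe* was not measured, but all 10 of the listed neutrophil granule genes linked to C/EBPε were. In *Ahr*+/- skin 2 rose and 0 fell (median -0.0027), and in *Ahr*-/- skin 7 rose and 0 fell (median 2.10). *Chil3*, a chitinase-like protein of myeloid cells, rose by 2.91 and 7.72, and in *Ahr*-/- skin *Mmp8*, the neutrophil collagenase, rose by 5.73 and *Cd177*, a neutrophil surface protein, by 3.22. In *Ahr*+/- skin *Mmp8* averaged 4.35 untreated and 6.37 after IMQ and *Cd177* 4.42 and 4.43, neither called. On day 2, 5 were higher in *Ahr*-/- skin (median 1.90), *Chil3* by 4.76, *Mmp8* by 3.83, *Mmp9* by 3.62 and *Cd177* by 3.09. Under the *Gapdh* covariate 1 granule gene was called on day 2 and 7 for IMQ in *Ahr*-/- skin. The 6 measured neutrophil markers had a mean signal of 5.85 to 6.08 in untreated and 8.75 to 9.25 in IMQ-treated *Ahr*+/- skin, and 5.85 to 6.31 and 9.77 to 9.96 in *Ahr*-/- skin. Single markers differed widely, and the rise of this mean rests largely on *S100a8* and *S100a9*. In *Ahr*+/- skin *S100a8* read 6.63 to 7.96 untreated and 14.1 to 14.7 after IMQ, and *S100a9* 5.50 to 6.72 and 13.8 to 14.7. There *Csf3r* read 6.93 to 7.11 and 7.65 to 8.90, and *Cxcr2* 5.39 to 6.21 and 6.88 to 7.83. After IMQ their median difference was 1.32 in *Ahr*+/- skin (range -0.21 to 8.23) and 3.35 in *Ahr*-/- skin (range 0.14 to 8.35). Between the genotypes on day 2 the median was 0.50 (range 0.25 to 2.30). Of these 6 markers, 4 were higher after IMQ in each genotype and 2 on day 2 in *Ahr*-/- skin, while *Mpo* and *Elane*, made by early granulocyte precursors, were not called. Replicate 3 as the only treated *Ahr*-/- array left 6 granule genes called for IMQ in *Ahr*-/- skin and 1 on day 2. The part of neutrophil number in these values was not tested.

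Of 24 measured genes of the integrated stress response, the pathway through eIF2α and ATF4 that induces CHOP, 6 rose and 0 fell in *Ahr*+/- skin (median 0.33), and 12 rose and 0 fell in *Ahr*-/- skin (median 0.45). *Slc7a11*, the cystine transporter and an ATF4 target, rose by 3.68 and 4.69, and *Asns*, asparagine synthetase, by 1.80 and 1.77. The serine synthesis genes *Psat1* and *Phgdh* rose by 1.63 and 1.13 in *Ahr*+/- skin and by 0.86 and 0.60 in *Ahr*-/- skin. *Chac1*, which degrades glutathione, rose in *Ahr*-/- skin by 1.40 and *Mthfd2*, a mitochondrial folate enzyme, by 1.18. In *Ahr*+/- skin *Chac1* averaged 7.80 untreated and 8.23 after IMQ, and *Mthfd2* 7.42 and 7.78. On day 2, 2 of the 24 were higher in *Ahr*-/- skin (median 0.14), *Ppp1r15a*, the CHOP target GADD34 that reverses eIF2α phosphorylation, by 1.10 and *Slc7a11* by 1.00. For the interaction limma called 0 of the 24, and 5 had an unadjusted p under 0.05, against 3185 of all 18193 genes. Treated *Ahr*-/- replicate 3 alone gave 4 calls for IMQ in *Ahr*-/- skin and 1 on day 2, and the *Gapdh* covariate 6 and 0.

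Of 10 measured adipocyte genes, 1 was called in *Ahr*+/- skin, against 9.05% of all genes (median of the list -0.27). It was *Lep*, which encodes leptin and fell by 1.57. In *Ahr*-/- skin 3 fell, against 22.7% of all genes called (median -0.41), *Adipoq* (-1.56), *Lpl* (-0.79) and *Retn* (-0.78). Both counts were thus near the shares of all genes. The *Gapdh* covariate left 1 adipocyte gene called for IMQ in *Ahr*-/- skin. *Lep* averaged 7.82 untreated and 7.40 after IMQ in *Ahr*-/- skin. In *Ahr*+/- skin *Adipoq* averaged 12.63 and 12.01, *Lpl* 13.41 and 13.13 and *Retn* 11.20 and 10.64, not called. None was called between the genotypes. Of 10 epidermal differentiation genes, 2 rose and 0 fell in *Ahr*+/- skin (median 0.42), *Grhl3*, a barrier transcription factor, by 1.72 and *Sfn*, 14-3-3σ, by 1.48. In *Ahr*-/- skin 2 rose and 4 fell (median -0.27), with *Sfn* up by 2.25. There *Grhl3* was higher after IMQ too, averaging 8.13 untreated and 9.56 after IMQ. The fallers included the cornified envelope and filament genes *Lor* (-3.58), *Krt10* (-3.47) and *Flg* (-2.34). In *Ahr*+/- skin *Lor* averaged 13.75 untreated and 12.48 after IMQ, *Krt10* 14.33 and 13.70 and *Flg* 10.68 and 10.89. On day 2, 3 were lower in *Ahr*-/- skin and 0 higher (median -0.55), *Flg* (-3.01), *Krt1* (-2.79) and *Krt10* (-2.71). The *Gapdh* covariate left 0 epidermal genes called on day 2 and 4 for IMQ in *Ahr*-/- skin. Where replicate 3 was the only treated *Ahr*-/- array, 0 adipocyte and 2 epidermal genes were called for IMQ in *Ahr*-/- skin and 0 of either list on day 2. Between the genotypes in untreated skin limma called 0 of the 82 different genes on the 6 lists. An unadjusted p under 0.05 was reached by 12 of them, against 1180 of all 18193 genes.

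**Figure D4:**
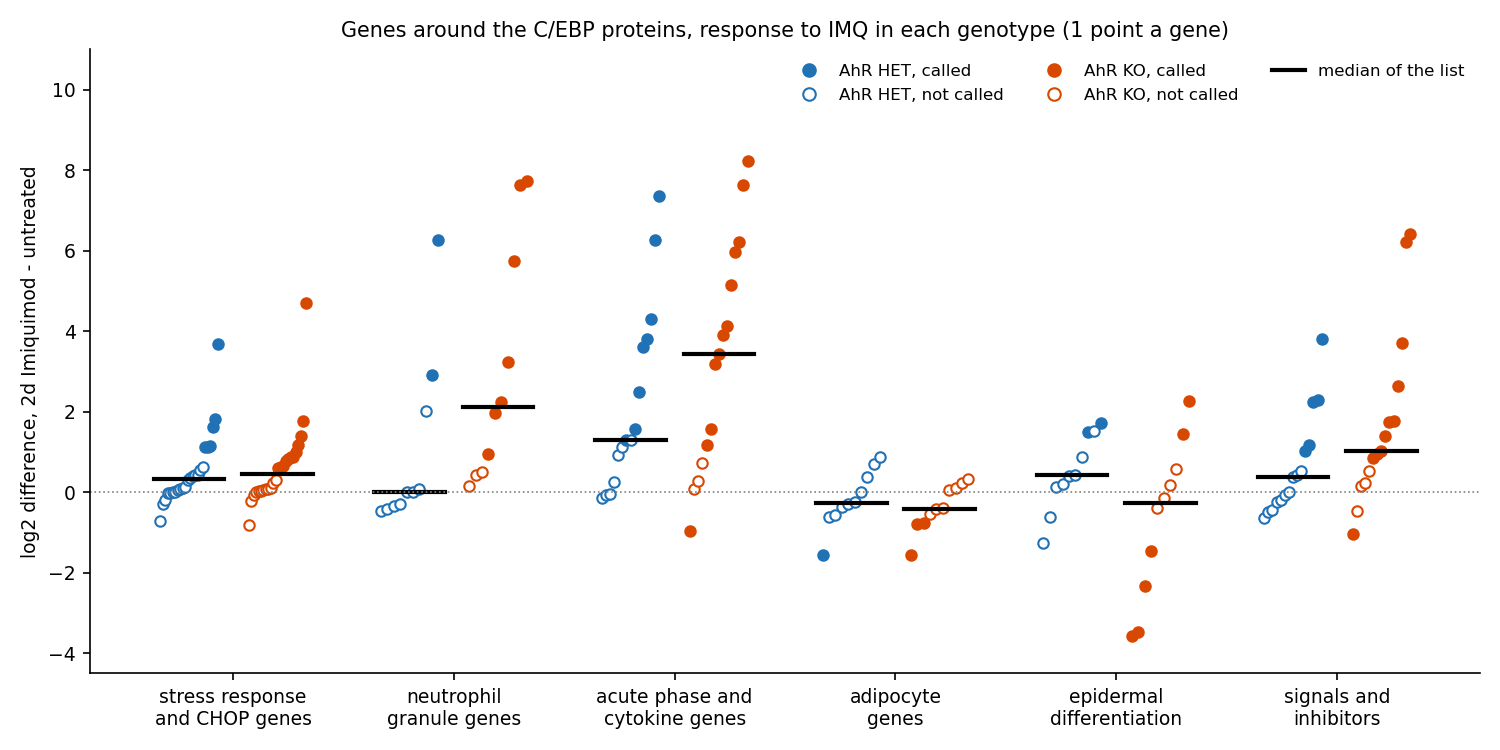
Response to IMQ as a log2 difference (vertical axis) for each gene of the 6 lists (horizontal axis), in *Ahr*+/- (blue) and *Ahr*-/- skin (orange), over 3 arrays a group; filled points were called and black lines are the list medians. The acute-phase list has medians of 1.29 and 3.42 and the granule genes of -0.0027 and 2.10, while the adipocyte list lies at -0.27 and -0.41.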

How the data were processed

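Total RNA of whole skin from 12 mice was hybridised to Affymetrix mouse arrays. Per the labels, the authors made the deposited log2 signals with RMA in the R package affy (version not given in the sources used here), a method with background correction, quantile normalization across arrays and a summary per probe set, so that shifts shared by all genes are removed. No raw intensities were used. Precision is limited by 3 arrays per group.

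Of 45101 probe sets, 64 controls, 932 sets with several genes and 9160 without a symbol were left out, leaving 34945 sets for 18193 genes. The set with the highest mean over 12 arrays stood for a gene. Group means were fitted with limma 3.58.1 in R 4.3.3 (lmFit, eBayes, 8 residual and 4.44 prior degrees of freedom), two-sided. Benjamini-Hochberg adjustment ran over all genes, separately in each of 5 comparisons. The fit was tested on simulated data. A further fit over all probe sets gave the values of the members' other sets. The members and lists were chosen with earlier results of these data known.

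Named were all members, for each the 3 genes with the highest Pearson r over 12 arrays, from each list up to 4 called genes with the largest difference in each comparison, or the 2 with the lowest p where none was called (given here only for called genes), *Ahr* and the control sets. *Farsa* and *Tiparp* means, and the values of single neutrophil markers, *Mpo* and *Elane* among them, were picked out after they were seen. So were *Nfil3* and *Orm1*, each among the 2 genes of its list with the lowest p in untreated skin and given for other comparisons. Tried as alternatives were an adjusted p under 0.01, no fold minimum, the mean of all probe sets, all probe sets, a mean signal of at least 5, median centring of the arrays, quantile normalization again, array weights, robust priors with a variance trend, the compared groups only, the replicate block, the *Gapdh* covariate, *Ahr*-/- IMQ replicate 3 alone, leaving out each array, and the rank product (all 9 pairwise ratios, 100 permutations, pfp under 0.01) in Python 3.11.15 with numpy 2.4.6.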

Additional observations from a re-analysis of the deposited data

Results flagged for a closer look

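The main probe set of *Ddit3* moved in opposite directions in the genotypes, lower on every IMQ array of *Ahr*+/- skin and higher on every IMQ array of *Ahr*-/- skin, and the difference between the responses was 1.04 (adjusted p = 0.0905), which did not pass. Among the genes named from the lists, *Nfil3*, which encodes a leucine zipper repressor, moved likewise, with a difference between the responses of 2.05 (adjusted p = 0.0173). Part of it was an untreated genotype difference of -0.79 (adjusted p = 0.719), lower in *Ahr*-/- skin.

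The responses to IMQ also differed between the genotypes by limma's interaction test for 8 further named genes. They were larger in *Ahr*-/- skin by 4.81 for *Chil3* (adjusted p = 0.0446), 4.17 for *Il1b* (adjusted p = 0.0131), 3.22 for *Cd177* (adjusted p = 0.00127), 2.72 for *Mmp9* (adjusted p = 0.042), 2.53 for *Csf3r* (adjusted p = 0.0155) and 1.75 for *Il1r1* (adjusted p = 0.0276). For *Krt1* the difference was -2.98 (adjusted p = 0.0488) and for *Krt10* -2.85 (adjusted p = 0.0496). With the *Gapdh* covariate 1 gene of the granule list was called for this comparison, and 0 of the signals and of the epidermal list. The 2 calls of the epidermal list, *Krt1* and *Krt10*, became 1 with the replicate number as a block, 0 with *Ahr*-/- IMQ replicate 3 alone and 0 without untreated *Ahr*+/- replicate 2, the array with the highest hair follicle markers. With *Ahr*-/- IMQ replicate 3 alone the 4 calls of the granule list became 1 and those of the signals 0.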

How the results depend on the processing

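For IMQ in *Ahr*+/- skin the count of members called, 1, was 0 at an adjusted p under 0.01, in the fit to the compared groups only and by the rank product, and 2 (*Cebpb* and *Cebpd*) with the mean of all probe sets; leaving out each array gave 0 to 1, with 0 without *Ahr*+/- IMQ replicate 1. In *Ahr*-/- skin the count of 3 was 2 (*Cebpb* and *Cebpd*, with *Ddit3* lost) at an adjusted p under 0.01, with the mean of all probe sets, in the fit to the compared groups only and with the *Gapdh* covariate, 1 (*Cebpb*) with IMQ replicate 3 alone, 0 by the rank product, and 2 to 3 leaving out each array, with *Ddit3* lost without untreated *Ahr*-/- replicate 1 or 2 or IMQ replicate 2. On day 2 the count of 1 was 0 at an adjusted p under 0.01, with the mean of all probe sets, the *Gapdh* covariate, *Ahr*-/- IMQ replicate 3 alone and the rank product, and 2 (*Cebpd* and *Ddit3*) with array weights; leaving out each array gave 0 (without any 1 of the *Ahr*+/- IMQ arrays or *Ahr*-/- replicate 2) to 2 (*Cebpb* and *Ddit3*, without *Ahr*-/- replicate 3). For the interaction the count of 0 was 2 (*Cebpb* and *Ddit3*) with array weights, and 0 to 1 leaving out each array. The causes were not tested.

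The labels give the groups the same replicate numbers, but same-numbered arrays deviated together by r of only -0.18 to 0.32, so they were not taken as pairs. With the replicate number as a block the day 2 count was 0 (*Ddit3* at 0.84, adjusted p = 0.051), *Ddit3* was also lost in *Ahr*-/- skin (adjusted p = 0.0541), and the block changed no other member call.

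Values near 0 changed sign: *Cebpa* in *Ahr*+/- skin was -0.025 when quantile normalized again and -0.082 to 0.19 leaving out each array. In untreated skin *Cebpd* was -0.050 with array weights and, leaving out each array, -0.21 to 0.37, *Cebpa* -0.033 to 0.36 and *Cebpg* -0.18 to 0.022. Of 510 member values under the alternatives, 466 kept direction and call, 27 lost it, 7 gained it and 10 changed sign.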
